A study of Mus musculus with 12 samples.

Results

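Genomic imprinting is the silencing of a gene on the chromosome inherited from one parent, so that RNA comes mainly from the other copy. The parental copies are told apart by DNA methylation laid down in the germline. Polycomb and other histone-modifying complexes take part in keeping the silent copy silent. Many imprinted genes control growth and cell division in the embryo and are turned down in adult tissues. The 10 imprinted genes described here were Sgce, Peg10, Igf2, Igf2r, Cdkn1c, Grb10, Peg3, Plagl1, Dlk1 and Mest, 10 of the 21638 genes in the count table. The set was chosen by the measured level of Sgce, which differed between Hdac2 ECKO and Ezh2 ECKO, 2 of the study's mutants, and its other members are well-known imprinted genes. The level of Sgce in those mutants is therefore given as a description, with no test of that difference. All 10 were present in the table, and 8 reached the minimum for testing, a mean of 10 counts per library. Peg10 and Dlk1 fell below that minimum. Sgce, Peg10, Igf2, Peg3, Plagl1, Dlk1 and Mest are known to be expressed from the paternal copy, and Igf2r and Cdkn1c from the maternal copy. Grb10 is expressed from the maternal copy in most tissues and from the paternal copy in neurons. The counts do not separate the parental copies.

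RNA was measured in endothelial cells of the adult mouse cerebral cortex, sorted for CD31, a surface protein of endothelium, and against CD41 and CD45, which mark platelets and leukocytes. There were 12 libraries in 4 groups of 3. The groups were wild type (WT), Hdac2 ECKO (Hdac2lox/lox:Cdh5CreERT2), Ezh2 ECKO (Ezh2lox/lox:Cdh5CreERT2) and beta-catenin GOF (Ctnnb1lox/lox:Cdh5CreERT2). Cdh5CreERT2 is a Cre recombinase driven by the promoter of the endothelial gene Cdh5 and switched on by tamoxifen. The labels give 5 tamoxifen doses of 75 mg/kg and tissue collection 2 months later, and they do not say whether WT mice carried Cre or received tamoxifen. Hdac2 encodes a histone deacetylase, Ezh2 the methyltransferase of Polycomb repressive complex PRC2, and Ctnnb1 the Wnt signalling protein beta-catenin. Strain background, age in weeks and sex were not given, and nothing in the labels says that the libraries of a group came from separate animals. P-values therefore measure the spread between these libraries, which may be technical.

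Each library held 24781070 to 36109975 counts over 13922 to 17091 genes above 0. Levels are given as CPM, the usual count scaled to library depth, with library totals adjusted by TMM, and 3 counts, taken as the detection floor, equalled 0.0791 to 0.118 CPM. All 10 endothelial markers checked, Cdh5 and Cldn5 among them, stood above that floor in every library, with a summed level of 5493 to 7502 CPM. The mean level of Hdac2 was 129 CPM in WT, 96.5 CPM in its own knockout and 96.2 CPM in beta-catenin GOF, and neither difference passed (adjusted p = 0.225 and 0.884, edgeR quasi-likelihood test with Benjamini-Hochberg adjustment). Ezh2 RNA was not lower in the 3 libraries whose label is Ezh2 ECKO, at 9.85, 5.19 and 11.7 CPM against 8.88, 2.69 and 8.68 CPM in WT (adjusted p = 0.615, edgeR). The mean level of Ctnnb1 was 654 CPM in WT, 583 CPM in beta-catenin GOF, 1156 CPM with Hdac2 ECKO and 1101 CPM with the Ezh2 label, and no difference from WT passed (adjusted p = 0.962, 0.0711 and 0.131 in that order, edgeR). The labels do not give the exons between the lox sites, and a count over the whole gene does not show whether they were removed. Those 3 libraries are therefore called Ezh2-labelled here. The second of them sat on the first principal component, which held 41.1% of the variance, among the WT and beta-catenin GOF libraries and apart from the rest of its group. In sorted bulk RNA, fewer cells of a type and less RNA per cell cannot be told apart.

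Sgce and Peg10 lie head to head on chromosome 6. Sgce (ENSMUSG00000004631.15) spans chr6:4674350-4747207 on the minus strand of GRCm38 and encodes epsilon-sarcoglycan, a membrane protein of the dystrophin-associated complex. Peg10 (ENSMUSG00000092035.8) spans chr6:4747306-4760517 on the plus strand, with 98 bases between the 2 genes, and encodes a protein derived from a retrotransposon that the placenta needs. Both are read from an imprinted promoter region that they share.

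Sgce was 6.38-fold lower in the Ezh2-labelled libraries than in WT. Its level was 31.4, 28.02 and 25.1 CPM in the 3 WT libraries, from 706 to 906 counts. The Ezh2-labelled libraries held 2.43, 4.72 and 6.10 CPM, from 75 to 170 counts. The groups did not overlap, and the highest Ezh2-labelled library was well under the lowest WT library. The mean fell from 28.2 ± 3.15 CPM (SD, n = 3) to 4.42 ± 1.86 CPM (SD, n = 3), a log2 fold change of -2.67 (SE 0.33, adjusted p = 0.00455 in edgeR). Ranked by p, Sgce stood at position 2 among the 129 genes called in this comparison. The call held in all 9 other settings tried and without each of the 6 libraries in turn, with log2 fold changes from -3.03 to -2.40. The Ezh2-labelled libraries were among those in view when Sgce was chosen, so this test is not independent of the choice.

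In Hdac2 ECKO, Sgce measured 19.6, 21.4 and 21.4 CPM, all below the lowest WT library. Its mean of 20.8 ± 1.04 CPM (SD, n = 3) gave a log2 fold change of -0.44 against WT (SE 0.31), which did not pass (edgeR adjusted p = 0.339). With a trend of counts on gene length removed from every library, the same difference was -1.02 and still did not pass (edgeR adjusted p = 0.0777). In beta-catenin GOF the 3 libraries held 24.0, 15.7 and 22.4 CPM, again all below WT, with a mean of 20.7 ± 4.39 CPM (SD, n = 3). The log2 fold change was -0.45 (SE 0.31, adjusted p = 0.91 in edgeR). The 3 comparisons with WT share the WT libraries.

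Between mutants, Sgce was 2.24 higher on the log2 scale in Hdac2 ECKO than in the Ezh2-labelled libraries, with no overlap of values. This is the difference that chose the gene, so it carries no test here. Against the same libraries, Sgce in beta-catenin GOF was higher by 2.23 on the log2 scale (SE 0.33, adjusted p = 0.0128 in edgeR). That call ended in a fit of only the 2 groups (edgeR adjusted p = 0.108) and without replicate 1 of the Ezh2-labelled libraries (0.0592), replicate 1 of beta-catenin GOF (0.0681) or replicate 3 of beta-catenin GOF (0.0774), each from edgeR. It also rests on the 3 Ezh2-labelled values in view when Sgce was chosen, so it is not independent of the choice. Between beta-catenin GOF and Hdac2 ECKO, the log2 difference was -0.01 (edgeR adjusted p = 0.993). The order of the group means was therefore WT, Hdac2 ECKO, beta-catenin GOF and the Ezh2-labelled libraries, and Hdac2 ECKO and beta-catenin GOF did not differ beyond their spread.

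**Figure D1:**
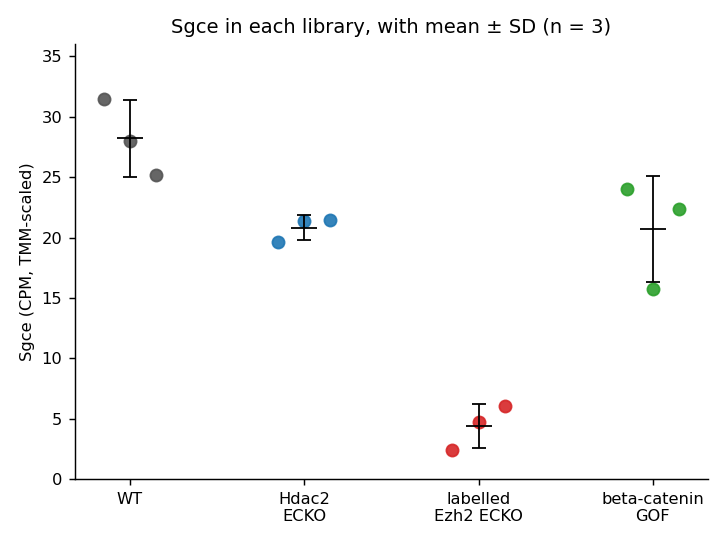
Level of Sgce in each of the 12 libraries, in TMM-scaled CPM on a linear axis from 0. Points are libraries, and the bars give the mean and SD of each group of 3. The Ezh2-labelled libraries lie between 2.43 and 6.10 CPM, below every other library, and the WT libraries lie highest, between 25.1 and 31.4 CPM.

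RNA of other cells in the sort also differed between these groups. The summed level of 5 erythrocyte markers was 36121 to 61357 CPM in WT, 2518 to 6662 CPM in the Ezh2-labelled libraries, 400.4 to 21652 CPM in Hdac2 ECKO and 509.6 to 35358 CPM in beta-catenin GOF, with all 5 above the floor in every group. The 6 choroid plexus markers summed to 0.854 to 2.47 CPM in WT and to 23.7 to 182 CPM in the Ezh2-labelled libraries, nearly all of it Ttr, while Kcne2 was at 0 in both groups. The range of the same sum was 2.27 to 111 CPM in Hdac2 ECKO and 0.448 to 33.6 CPM in beta-catenin GOF. The 13 pericyte and smooth muscle markers summed to 71.1 to 132 CPM in WT and 64.3 to 86.3 CPM in the Ezh2-labelled libraries, with Cnn1 at 0 in WT, while the range was 147 to 359 CPM in Hdac2 ECKO and 131 to 442 CPM in beta-catenin GOF. The part of these cells in the level of Sgce was not tested.

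Peg10, the partner of Sgce, was close to the floor. Peg10 had 8, 0 and 6 counts in the WT libraries and 36, 4 and 6 counts in Hdac2 ECKO. It had 2, 0 and 2 counts in the Ezh2-labelled libraries and 14, 4 and 2 counts in beta-catenin GOF. Hdac2 ECKO replicate 1, at 1.36 CPM, was the highest library, and 5 of the 12 libraries had at most 3 counts, the floor. The 3 Ezh2-labelled libraries were all under it, so no fold is given, and a difference from WT was not detectable at this depth.

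The genes around the pair were read in the same comparison. Of 13 neighbours within about a megabase, 10 were tested, and none was called against WT in any of the 3 mutants (edgeR), with 3, 3 and 0 at an unadjusted p under 0.05 in Hdac2 ECKO, the Ezh2-labelled libraries and beta-catenin GOF. Over all tested genes, 9.2%, 1.03% and 0% were called and 33.1%, 24.7% and 6.07% had such a p in the same comparisons, so the neighbours lay near the background. Casd1, a sialic acid acetyltransferase gene and the nearest tested neighbour, stood at 60.6 CPM in the Ezh2-labelled libraries and 39.4 CPM in WT, a log2 difference of 0.62 (SE 0.29, adjusted p = 0.193 in edgeR). Bet1, which encodes a vesicle transport protein, was the only one whose values in the Ezh2-labelled libraries did not overlap those of WT, at 0.64 higher (SE 0.25, adjusted p = 0.14 in edgeR). On the other side of the pair, the imprinted neighbours Ppp1r9a and Asb4 gave 0.15 (SE 1.01) and 0.18 (SE 0.36).

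Among the rest, the log2 difference was 0.13 for Tfpi2, a protease inhibitor gene that is imprinted in placenta, and 0.79 for the G protein subunit gene Gng11. The paraoxonase genes Pon3 and Pon2 gave 0.12 and -0.68. Pdk4, a regulator of glucose oxidation, gave 0.83, and the dynein subunit gene Dync1i1 gave -0.77. In a window of 5 Mb to each side of Sgce, set after the values were seen, none of the other 24 tested genes was called in this comparison. Over chromosome 6 as a whole, 11 of 602 tested genes were called, all lower, which is 1.83% beside 1.03% of all tested genes called and 0.684% called lower. This difference in share was not tested. The gene for Ezh2 lies on the same chromosome, 42.8 Mb from Sgce.

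**Figure D2:**
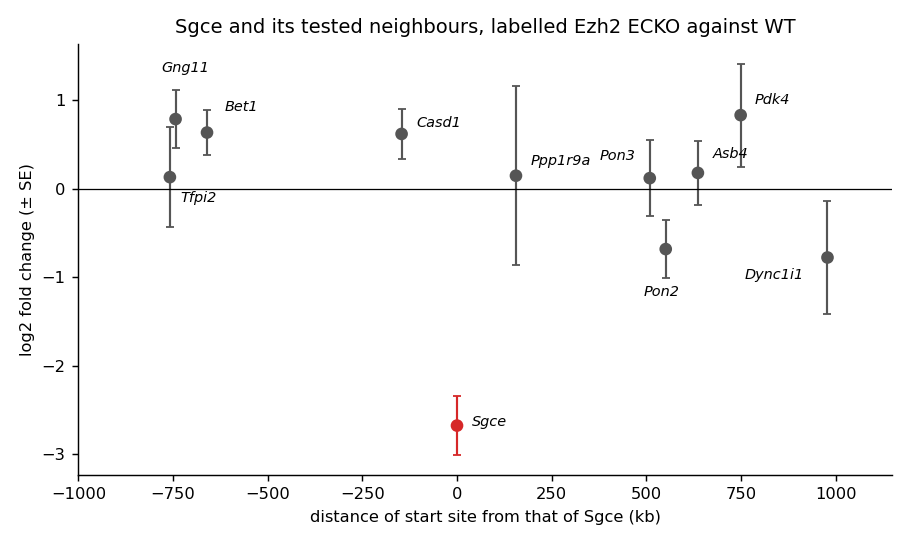
Log2 fold change of Sgce and its 10 tested neighbours in the Ezh2-labelled libraries against WT (vertical axis, edgeR estimate with its SE as bars), by the distance of each start site from that of Sgce in kb (horizontal axis). Sgce, in red at -2.67, lies apart from its neighbours, in grey, which run from -0.77 to 0.83.

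Over the 8 tested imprinted genes, the Ezh2-labelled libraries had 1 call against WT, Sgce, where 1.03% of all tested genes were called in this comparison and 0.684% were called lower. The values of 3 of the 8, Sgce, Igf2 and Igf2r, did not overlap WT, against 21.9% of all tested genes. An unadjusted p under 0.05 was found for 3 in edgeR, against 24.7%. Sgce was chosen with the Ezh2-labelled values in view, so its part in these counts is not independent of the choice. Hdac2 ECKO had no call among the 8 in edgeR against a background of 9.2%, with 4 at an unadjusted p under 0.05 in edgeR (33.1% of all tested genes). DESeq2 called 3 (Cdkn1c, Grb10 and Peg3), but its share over all genes is not given here. Over the other settings, DESeq2 among them, 611 to 5374 of all genes were called, so nothing is read from the 3. In Hdac2 ECKO, 4 of the 8 did not overlap WT, against 37.8% of all tested genes. Beta-catenin GOF had no call among the 8, where 0% of all genes were called, and none at an unadjusted p under 0.05 in edgeR (6.07% of all tested genes) or called by DESeq2. Only Sgce did not overlap WT there, against 12.7% of all tested genes. The median log2 fold change of the 8 was 0.15 in Hdac2 ECKO, 0.31 in the Ezh2-labelled libraries and 0.21 in beta-catenin GOF, beside 0.10, 0.05 and 0.01 over all tested genes.

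**Figure D3:**
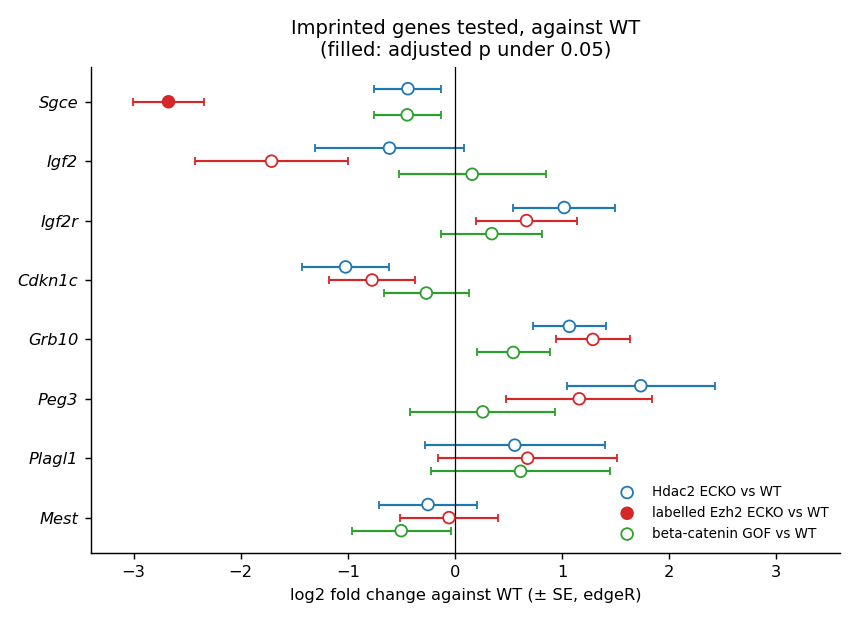
Log2 fold change against WT of the 8 tested imprinted genes (horizontal axis, edgeR estimate with its SE as bars) in Hdac2 ECKO (blue), the Ezh2-labelled libraries (red) and beta-catenin GOF (green). A filled symbol marks an adjusted p under 0.05, which Sgce alone reached, at -2.67 in the Ezh2-labelled libraries. Sgce was chosen with those libraries in view, so its call is not independent of the choice.

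Between the mutants, the comparison of Hdac2 ECKO with the Ezh2-labelled libraries is the one that chose Sgce, so no test of Sgce is given. No other tested imprinted gene was called (edgeR), where 0.0239% of all tested genes were. In that comparison the log2 differences of the other tested imprinted genes ran from -0.25 for Cdkn1c to 1.10 for Igf2. Beta-catenin GOF against the Ezh2-labelled libraries called 1 of the 8, Sgce, at a background of 0.0636%. That call is not independent of the choice of Sgce. In beta-catenin GOF against Hdac2 ECKO, none of the 8 was called (edgeR), against a background of 0.0716%, with Peg3 alone at an unadjusted p under 0.05, where 21.1% of all tested genes were.

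Igf2, the fetal growth factor insulin-like growth factor II, lies at chr7:142650766-142666816 on the minus strand. Its level in WT was 1.32, 2.15 and 1.92 CPM, and in the Ezh2-labelled libraries 0.518, 0.472 and 0.646 CPM, from 12 to 18 counts. The groups did not overlap, and the mean was 3.28-fold lower in the Ezh2-labelled libraries, yet the log2 fold change of -1.71 (SE 0.72) missed the threshold (edgeR adjusted p = 0.158). Hdac2 ECKO held 1.66, 1.24 and 0.624 CPM and beta-catenin GOF 2.32, 2.32 and 1.39 CPM, and both overlapped WT. Their log2 fold changes were -0.61 (SE 0.69) and 0.16 (SE 0.69). Igf2 shares its place with Gm49394 on the same strand and Igf2os on the opposite one, and whether the counting used strand was not stated.

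Igf2r encodes the receptor that binds IGF2 and carries it to lysosomes for breakdown, and lies at chr17:12682406-12769664 on the minus strand. WT libraries held 3.19, 1.77 and 2.28 CPM, and Hdac2 ECKO held 6.81, 3.52 and 4.37 CPM. All Hdac2 ECKO libraries were above all WT libraries, with a log2 fold change of 1.02 (SE 0.47) that did not pass (edgeR adjusted p = 0.147). It was 0.48 with the gene length trend removed, and it passed with sample quality weights (1.13, limma adjusted p = 0.0335). Those weights also raised the calls over all genes from 1157 to 5374. The Ezh2-labelled libraries held 3.37, 4.92 and 3.23 CPM, just above the highest WT library, and beta-catenin GOF held 2.52, 2.37 and 4.30 CPM. Their log2 fold changes were 0.67 (SE 0.47) and 0.34 (SE 0.47). The antisense transcript Airn overlaps Igf2r on the opposite strand.

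Cdkn1c, at chr7:143458339-143461050 on the minus strand, encodes the cell cycle inhibitor p57. It had the highest level per length of the 10 genes, with a mean over the 12 libraries of 48.2 CPM per kb. WT libraries held 123, 124 and 158 CPM, and Hdac2 ECKO held 58.7, 75.7 and 65.4 CPM. The groups did not overlap, and the mean of 66.6 ± 8.54 CPM (SD, n = 3) was 2.03-fold below the 135 ± 20.2 CPM (SD, n = 3) of WT. The log2 fold change of -1.02 (SE 0.40) missed the threshold in edgeR (adjusted p = 0.0988), passed in DESeq2 (-1.07, adjusted p = 0.0421) and was -0.38 with the gene length trend removed. The Ezh2-labelled libraries were split, at 40.5, 131 and 65.6 CPM, with replicate 2 inside the WT range. Their log2 fold change was -0.77 (SE 0.40, adjusted p = 0.243 in edgeR), and without replicate 2 it was -1.35 and passed (edgeR adjusted p = 0.0262). Leaving out that library also raised the calls over all genes from 129 to 2328. Beta-catenin GOF was split as well, at 146, 139 and 52.0 CPM, with a log2 fold change of -0.27 (SE 0.40).

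Grb10, at chr11:11930508-12038683 on the minus strand, encodes an adaptor that binds the insulin and IGF1 receptors and restrains their signalling. RefSeq gives it 2 start sites in GRCm38.p6, shown here because the counts join RNA from both. Each window runs in the direction of transcription from 250 bases before the start to 50 after it, with every CG dinucleotide, the target of DNA methylation, in capitals.
Grb10 upstream start, chr11:12037371-12037670, minus strand: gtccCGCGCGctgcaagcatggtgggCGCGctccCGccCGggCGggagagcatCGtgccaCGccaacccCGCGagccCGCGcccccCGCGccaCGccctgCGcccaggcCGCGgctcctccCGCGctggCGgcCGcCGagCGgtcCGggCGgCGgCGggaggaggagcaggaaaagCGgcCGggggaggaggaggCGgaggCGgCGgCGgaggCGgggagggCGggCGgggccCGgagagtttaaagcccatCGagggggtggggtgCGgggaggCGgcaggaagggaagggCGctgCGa
Grb10 downstream start, chr11:12027922-12028221, minus strand: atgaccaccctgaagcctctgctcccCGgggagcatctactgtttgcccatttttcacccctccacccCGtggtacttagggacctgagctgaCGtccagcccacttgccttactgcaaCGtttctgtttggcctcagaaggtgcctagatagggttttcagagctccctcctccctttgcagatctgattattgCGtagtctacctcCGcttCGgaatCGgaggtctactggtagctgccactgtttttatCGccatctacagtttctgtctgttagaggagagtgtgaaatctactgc

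The upstream window held 45 CG dinucleotides, a number that 1.93% of the 32851 RefSeq start windows of this length reach. The downstream window held 9, a number that 45.8% of windows reach, and the median over all windows was 7. CG reads the same on both strands. The counts do not show which start was used in these cells, and methylation was not measured. Of the 10 genes, 7 had a window in the RefSeq table.

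WT libraries held Grb10 at 26.7, 35.6 and 52.8 CPM, and Hdac2 ECKO held 90.5, 66.9 and 83.9 CPM. All Hdac2 ECKO libraries were above all WT libraries, with means of 80.4 ± 12.2 and 38.4 ± 13.2 CPM (SD, n = 3 each). The log2 fold change of 1.07 (SE 0.34) lay just outside the threshold (edgeR adjusted p = 0.0566). It passed in 7 of 9 other settings, DESeq2 among them (1.02, adjusted p = 0.0225), and in edgeR without WT replicate 3 (1.37, adjusted p = 0.0316) or Hdac2 ECKO replicate 2 (1.14, adjusted p = 0.0469). With the gene length trend removed it was 0.59 and did not pass (edgeR adjusted p = 0.182). Leaving out Hdac2 ECKO replicate 2 also raised the calls over all genes from 1157 to 2220.

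In the Ezh2-labelled libraries, Grb10 was at 118, 47.1 and 116 CPM, with replicate 2 inside the WT range and the other libraries far above it. The log2 fold change of 1.29 (SE 0.34) missed the threshold over all libraries (edgeR adjusted p = 0.0667). It passed without replicate 2 (1.61, edgeR adjusted p = 0.0092), without WT replicate 3 (1.59, edgeR adjusted p = 0.0242) and in DESeq2 (1.27, adjusted p = 0.00922). Leaving out replicate 2 of the Ezh2-labelled libraries also raised the calls over all genes from 129 to 2328. Beta-catenin GOF held 59.7, 44.97 and 63.2 CPM, overlapping WT, with a log2 fold change of 0.54 (SE 0.34, adjusted p = 0.892 in edgeR).

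Peg3 and Plagl1 encode zinc finger transcription factors. Peg3 (chr7:6703892-6730431, minus strand) was at 1.46, 3.80 and 5.91 CPM in WT and at 24.6, 5.48 and 7.14 CPM in Hdac2 ECKO. Hdac2 ECKO replicate 1 stood far above the other libraries, and the groups overlapped. The log2 fold change of 1.74 (SE 0.69) missed the threshold in edgeR (adjusted p = 0.10), passed in DESeq2 (1.69, adjusted p = 0.048) and was 0.75 without that library. That library also had the most Peg10 and, within its group, the highest pericyte and smooth muscle marker sum, at 359 CPM. The highest such sum of any library, 442 CPM, was in beta-catenin GOF replicate 1, where Peg3 was at 1.98 CPM. The part of those cells in the Peg3 value was not tested. Peg3 was at 6.80, 3.15 and 15.01 CPM in the Ezh2-labelled libraries and at 1.98, 4.64 and 6.74 CPM in beta-catenin GOF, with log2 fold changes of 1.16 (SE 0.68) and 0.26 (SE 0.68).

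Plagl1 (chr10:13060504-13131694, plus strand), which also goes by the name Zac1 and restrains cell growth, ranged from 0.391 to 2.43 CPM over the 12 libraries, from 12 to 72 counts. All groups overlapped. Its log2 fold changes against WT were 0.56 (SE 0.84) in Hdac2 ECKO, 0.68 (SE 0.84) in the Ezh2-labelled libraries and 0.61 (SE 0.84) in beta-catenin GOF, each smaller than its SE.

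Dlk1 (chr12:109452823-109463336, plus strand), a transmembrane relative of the Notch ligands, was at or under the floor of 3 counts in 5 of 12 libraries and nowhere above 8 counts. The 3 WT libraries held 4, 0 and 0 counts and those of Hdac2 ECKO 8, 2 and 4, with 7, 4 and 4 in the Ezh2-labelled libraries and 2, 6 and 0 in beta-catenin GOF. These values are too low for a comparison. Mest (chr6:30723547-30748465, plus strand) encodes a member of the alpha/beta hydrolase family and lies on the same chromosome as Sgce. Mest was at 5.34, 8.07 and 6.26 CPM in WT and overlapped WT in every mutant. Its log2 fold changes were -0.25 (SE 0.46) in Hdac2 ECKO, -0.06 (SE 0.46) in the Ezh2-labelled libraries and -0.50 (SE 0.46) in beta-catenin GOF, where replicate 3, at 1.83 CPM, was the lowest library. The sign of the first and second turned with scaling by library size alone, to 0.0026 and 0.0028. Copg2 overlaps Mest on the opposite strand.

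**Figure D4:**
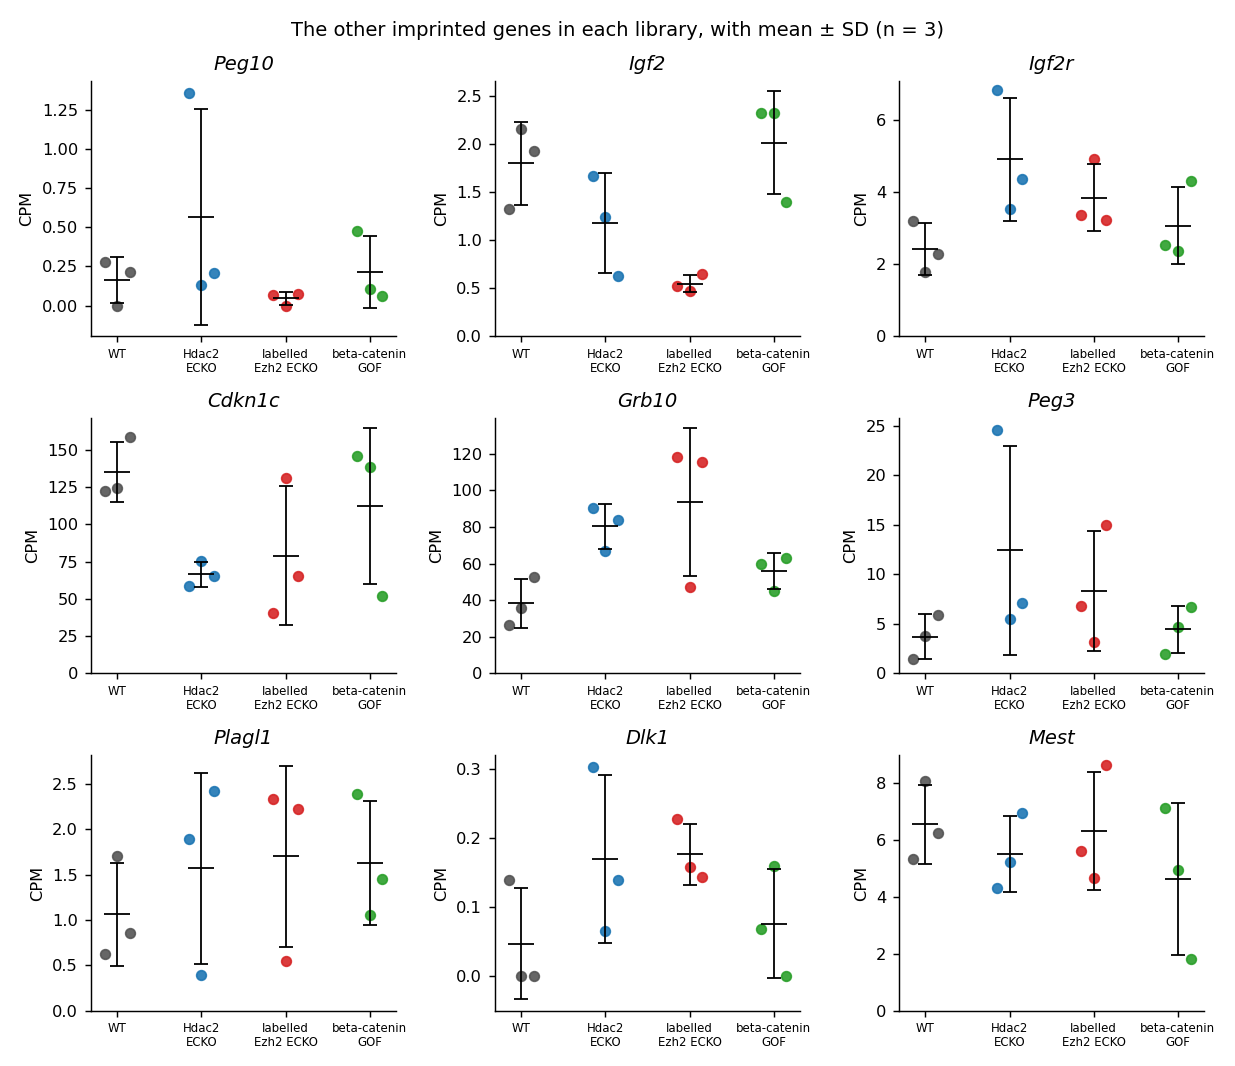
Levels of the other 9 imprinted genes in each library, in TMM-scaled CPM on linear axes that differ between panels, with points for libraries and bars for the mean and SD of each group of 3. The Cdkn1c panel shows Hdac2 ECKO below WT and the other mutants split, and the Grb10 panel shows Hdac2 ECKO above WT, with 1 Ezh2-labelled library inside the WT range at 47.1 CPM.

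Per length, the 10 genes spanned a wide range in these cells. Behind Cdkn1c, the mean over the 12 libraries was 7.38 CPM per kb for Grb10, 1.75 for Sgce, 1.46 for Mest and 0.531 for Peg3. It was 0.382 CPM per kb for Igf2r, 0.242 for Igf2, 0.191 for Plagl1, 0.0371 for Peg10 and 0.0206 for Dlk1. Apart from Cdkn1c, Grb10 and Sgce, the tested members had mean counts of at most 210.5, which limits the precision of their folds.

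The levels of Sgce fell into separate clusters, the Ezh2-labelled libraries and the other 9, so its relation to the other imprinted genes was taken over those 9 libraries alone, on log2(CPM + 1). For Peg10, Pearson's r was -0.17 (permutation p = 0.612, adjusted 0.816 over 8 relations) and Spearman's rho -0.02 (permutation p = 0.981, adjusted 0.981). Without the 2 libraries farthest from the median of Sgce, r was -0.60, and without Hdac2 ECKO replicate 1 it was 0.19. None of the 8 relations passed, with a smallest adjusted permutation p of 0.524 for Pearson's r and 0.323 for Spearman's rho. Without the same 2 libraries, r over the 8 ran from -0.96 for Grb10 and -0.94 for Igf2r to 0.77 for Cdkn1c. The permutation did not keep libraries within their groups. For deviations from group means over all 12 libraries, r was 0.01 for Peg10 and ran from -0.18 for Grb10 to 0.22 for Cdkn1c.

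The 5 genes whose level followed that of Sgce most closely over all 12 libraries were Fggy, which encodes a carbohydrate kinase (Pearson's r = 0.92), Sh3yl1, which encodes a membrane-binding adaptor (0.89), the small GTPase gene Rab32 (0.87), the septin gene Sept11, whose symbol in the table had been turned into a date (0.87) and Rcan2, which encodes a calcineurin regulator (0.86). These r are a description, since the Ezh2-labelled libraries lie apart in the level of Sgce. They were also below every WT library in each of the 5 genes except Sept11. There the highest Ezh2-labelled library, at 100.4 CPM, was above the lowest WT library, at 92.2 CPM. Over the other 9 libraries, r with Sgce was -0.05 for Fggy, 0.37 for Sh3yl1, 0.69 for Rab32, 0.48 for Sept11 and 0.42 for Rcan2. None of the 5 lies on chromosome 6. Against WT, the Ezh2-labelled libraries had log2 fold changes of -3.37 for Fggy, -1.80 for Sh3yl1, -1.69 for Rab32, -0.80 for Sept11 and -1.08 for Rcan2, and none passed (edgeR adjusted p from 0.0547 to 0.105).

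Other imprinted genes were read from a list of 54, of which 45 were in the table and 28 were tested. In Hdac2 ECKO 1 of the 28 was called lower and none was called higher (edgeR), with 11 at an unadjusted p under 0.05. Of all tested genes, 9.2% were called and 33.1% had such a p. The gene called was H13, which encodes signal peptide peptidase, at 14.1, 32.2 and 19.2 CPM against 52.9, 50.1 and 34.8 CPM in WT. It fell by 1.07 on the log2 scale (SE 0.31, adjusted p = 0.0458 in edgeR), and the call ended with scaling by library size alone, in a fit of the 2 groups and without each of 4 libraries (both replicates 1, WT replicate 2 and Hdac2 ECKO replicate 3, edgeR adjusted p from 0.124 to 0.191). In the Ezh2-labelled libraries and in beta-catenin GOF, none of the 28 was called (edgeR), with 5 and 0 at an unadjusted p under 0.05, against 24.7% and 6.07% of all tested genes. The list had a median difference on the log2 scale of 0.05 in Hdac2 ECKO, 0.14 in the Ezh2-labelled libraries and -0.02 in beta-catenin GOF. H19, Meg3 and Kcnq1ot1 were not analysed here.

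Genes for the enzymes and binding proteins that write, keep or remove imprints were tested for 17 of 20 listed. Against WT, 4 were called higher in Hdac2 ECKO and none was called lower, where 9.2% of all tested genes were called. The list median was 0.80, beside 0.10 over all tested genes. The 4 called were the de novo DNA methyltransferase gene Dnmt3a at 1.29 (SE 0.36), the methylcytosine dioxygenase genes Tet1 at 1.68 (SE 0.35) and Tet3 at 1.21 (SE 0.32), and the histone methyltransferase gene Ehmt1 at 1.05 (SE 0.31), with edgeR adjusted p from 0.0323 to 0.0488. Tet1 stood at 14.3, 10.2 and 12.8 CPM in Hdac2 ECKO against 3.64, 5.29 and 2.71 CPM in WT. With the gene length trend removed, the 4 values were 0.53, 0.90, 0.42 and 0.64, and none passed (edgeR adjusted p from 0.103 to 0.306). Each call also ended without WT replicate 1, WT replicate 2, Hdac2 ECKO replicate 1 or Hdac2 ECKO replicate 3. None of the 17 was called in the Ezh2-labelled libraries or in beta-catenin GOF (edgeR), with 6 and 1 at an unadjusted p under 0.05, against 24.7% and 6.07% of all tested genes. The list medians there were 0.57 and 0.11, beside 0.05 and 0.01 over all tested genes. Of the 17, 15 were higher than WT in Hdac2 ECKO, 15 in the Ezh2-labelled libraries and 13 in beta-catenin GOF. Hdac2 ECKO against the Ezh2-labelled libraries called none of the 17 (edgeR), where 0.0239% of all tested genes were called.

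Sgce protein works with other sarcoglycans and dystrophin, and 10 of 14 genes of that complex were tested. In Hdac2 ECKO 1 of the 10 was called (edgeR), where 9.2% of all tested genes were. Dmd, the dystrophin gene, was higher in Hdac2 ECKO at 54.8, 15.3 and 22.6 CPM against 9.82, 8.36 and 12.9 CPM in WT (log2 fold change 1.58 with SE 0.44, adjusted p = 0.0426 in edgeR). It was 0.85 without Hdac2 ECKO replicate 1 and 0.56 with the gene length trend removed, and passed in neither. The pericyte and smooth muscle markers moved with it: all 12 tested were higher in Hdac2 ECKO. Of these, 5 were called (Pdgfrb, Rgs5, Cspg4, Myh11 and Higd1b), where 9.2% of all tested genes were. The median log2 fold change of the markers was 1.85, beside 0.10 over all tested genes. Their sum was highest in that group in replicate 1, at 359 CPM. In beta-catenin GOF, where replicate 1 had the highest sum of any library, at 442 CPM, the log2 fold change of Dmd was 0.45 (SE 0.44). The part of those cells in the Dmd value was not tested. Sgcb, the gene of beta-sarcoglycan, was lower in the Ezh2-labelled libraries, at 4.47, 2.05 and 1.97 CPM against 9.96, 13.7 and 11.5 CPM in WT. It fell by 2.05 on the log2 scale (SE 0.40, adjusted p = 0.0448 in edgeR). The groups did not overlap, but the call ended with scaling by library size alone (edgeR adjusted p = 0.052), in a fit of the 2 groups (0.102) and without each of 4 libraries, replicates 1 and 2 of WT and replicates 1 and 3 of the Ezh2-labelled libraries (0.0606 to 0.156). The other 9 tested genes of the complex were not called there, and none of the 10 was called in beta-catenin GOF. Of all tested genes, 1.03% and 0% were called in these comparisons.

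Of 10 further genes of the insulin and IGF axis, 8 were tested. In Hdac2 ECKO 2 were called, both higher, where 9.2% of all tested genes were called. Insr, the insulin receptor gene, stood at 184, 109 and 182 CPM against 67.3, 71.4 and 78.6 CPM in WT (log2 fold change 1.13 with SE 0.26, adjusted p = 0.0338 in edgeR), and at 0.41 with the gene length trend removed it did not pass (edgeR adjusted p = 0.186). The insulin receptor substrate gene Irs2 had no count in any WT library and 114, 0 and 28 counts in Hdac2 ECKO (edgeR adjusted p = 0.0421). The groups overlapped at 0. Without Hdac2 ECKO replicate 1 the gene fell below the minimum for testing, and the call ended without any 1 of the 3 WT libraries or without Hdac2 ECKO replicate 3, so it rests on few libraries and no fold is given. None of the 8 was called in the Ezh2-labelled libraries or in beta-catenin GOF (edgeR), with 2 and 3 at an unadjusted p under 0.05, against 24.7% and 6.07% of all tested genes.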

How the data were processed

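RNA from sorted cortical endothelium was sequenced as read pairs after SMART-Seq v4 PLUS amplification, per the labels' protocols. The submitters' processing notes name FastQC, cutadapt, STAR, featureCounts, DESeq2 and the build mm10. Their roles, the annotation and the use of strand are not given in the sources used here. The deposited values are titled normalized, but they were whole-number counts with unequal totals, and 79.5% to 84.0% of values from 10 to 50 were even, as in counts of single mates of read pairs. They were therefore treated as raw counts. Gene positions matched GENCODE M21 on GRCm38 for 98.3% of genes.

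Groups were compared by the quasi-likelihood test of edgeR (version 4.0.16, under R 4.3.3) after TMM scaling, in 1 model over 12 libraries with a term per group. It covered 12577 genes, those averaging 10 or more counts per library, with Benjamini-Hochberg adjustment within each of 6 comparisons and a threshold of 0.05. SEs were derived from the F statistic, and levels are mean ± SD. Alternatives were DESeq2 1.42.0, limma 3.58.1 with sample quality weights, other filters and scalings, a gene length trend removed, a fit of the 2 groups, a replicate block and leaving out each library. Replicate pairs differed by far more than sampling noise (chi-square per degree of freedom at least 62.6). The reads carry no molecular identifiers, so the floor of 3 counts covers counting error only.

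Deviations from group means correlated over 0.1 in every same-numbered pair only between Hdac2 ECKO and Ezh2 ECKO. There, replicate 1 of each group also correlated over 0.1 with replicate 3 of the other. The main model has no block, as planned. The genes and lists were chosen with earlier results of these data known. Named were all 10 imprinted genes, the tested neighbours of Sgce, list members called against WT, the targeted genes and the 5 genes most like Sgce. Correlations with Sgce were planned over 12 libraries and were taken over 9 because its levels fell into clusters. Scripts were tested on simulated data.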

Additional observations from a re-analysis of the deposited data

Results flagged for a closer look

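The level of Sgce differed between mutants in their comparison with the same WT libraries. It was 2.24 higher on the log2 scale in Hdac2 ECKO than in the Ezh2-labelled libraries, which is the difference that chose the gene and has no test here. It was 2.23 higher in beta-catenin GOF than in the Ezh2-labelled libraries, a difference that rests on the same Ezh2-labelled values and is not independent of the choice of the gene.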

How the results depend on the processing

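The fall of Sgce in the Ezh2-labelled libraries against WT kept its call in all alternatives. All of them use the Ezh2-labelled values in view when Sgce was chosen, so they are not independent of the choice. The number of the 8 imprinted genes called in Hdac2 ECKO against WT went from 0 to 3 with no filter, in DESeq2 and with sample quality weights, to 2 in a fit of the 2 groups and to 1 with a mean count of at least 50, with library size alone and with the replicate block, and to 0 to 1 without 1 library. In the Ezh2-labelled libraries against WT it went from 1 to 2 with no filter, in DESeq2 and with the replicate block, to 3 with sample quality weights and to 1 to 3 without 1 library. Calls in Hdac2 ECKO against the Ezh2-labelled libraries are not followed here, since that difference chose Sgce. Beta-catenin GOF against Hdac2 ECKO went from 0 to 1 with no filter and with sample quality weights. Beta-catenin GOF against the Ezh2-labelled libraries went from 1 to 2 with sample quality weights, to 0 in a fit of the 2 groups and to 0 to 2 without 1 library. With sample quality weights, the number of all genes called against WT also rose, from 1157 to 5374 in Hdac2 ECKO. In the Ezh2-labelled libraries it rose from 129 to 3743. Nothing is therefore read from the rises in the counts of the 8. The cause of these changes was not tested.

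Signs turned for values near 0. Sgce in beta-catenin GOF against Hdac2 ECKO became 0.009 with no filter, 0.0276 with median-ratio scaling, 0.0275 in DESeq2, 0.0265 in a fit of the 2 groups and 0.40 with the gene length trend removed, and ran from -0.13 to 0.16 without 1 library. Mest became 0.0026 in Hdac2 ECKO and 0.0028 in the Ezh2-labelled libraries against WT with library size alone, and in the latter 0.092 with the length trend removed and -0.36 to 0.12 without 1 library. In beta-catenin GOF against WT, leaving out 1 library gave -0.0186 to 0.37 for Igf2, -0.16 to 0.76 for Peg3 and -0.50 to 0.0763 for Cdkn1c. The r of Sgce with Peg10 ran from -0.44 to 0.19 without 1 library.

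The count of all genes called varied far more: 1157 in Hdac2 ECKO against WT (611 to 5374 over settings, 0 to 2220 without 1 library) and 129 in the Ezh2-labelled libraries against WT (17 to 3743, and 2 to 2328). It was 0 in beta-catenin GOF against WT (0 to 157, and 0 to 4). Between mutants it was 3 (2 to 199, and 1 to 3), 9 (1 to 3339, and 0 to 541) and 8 (10 to 1466, and 1 to 731), in the order used above. Scaling by library size alone moved the median over all genes in Hdac2 ECKO against WT, on the log2 scale, from 0.10 to 0.34. Over all groups, libraries with the same replicate number did not deviate together (mean r 0.04 over 18 pairs, 6 of them over 0.1, and 6 of 12 libraries closest to their own number). Between Hdac2 ECKO and the Ezh2-labelled libraries all 3 such pairs did (r 0.19, 0.43 and 0.13). Replicate 1 of each group also deviated with replicate 3 of the other (r 0.21 for Hdac2 ECKO replicate 1 and 0.12 for Ezh2-labelled replicate 1). Pairs of replicate 2 with replicate 1 or 3 had negative r there, from -0.30 to -0.19. In that comparison the replicate block gave a Sgce difference of 2.26 and called 3 genes, as many as without it. The replicate block called Grb10 in Hdac2 ECKO (edgeR adjusted p = 0.031) and in the Ezh2-labelled libraries (edgeR adjusted p = 0.0394) against WT. Over all alternatives the calls against WT ran from 0 to 10 for the genes that write, keep or remove imprints and from 0 to 3 for the neighbours of Sgce. The 10, in Hdac2 ECKO, and the 3, in the Ezh2-labelled libraries, came with sample quality weights. That setting also gave the most calls over all genes there, 5374 and 3743. Depth limits Peg10 and Dlk1, which could not be tested.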
